A study of Mus musculus with 12 samples.

Results

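The genes described here were 9 nuclear receptor genes (*Rara*, *Rarg*, *Rxra*, *Rxrb*, *Vdr*, *Thra*, *Ppard*, *Pparg*, and *Nr3c1*) and *Dhrs3*, an enzyme of retinoid metabolism, which make 10 of the 32051 genes measured. They were selected by symbol, and the set was built around *Rara* because its response to endomelipeptide A (EpA) differed in these libraries between cultures with and without fatostatin. The level of *Rara* is therefore given as a description with no test, and the same holds for the difference between the EpA effects of every gene. The other members and the gene lists were also chosen with earlier results of these data known.

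Naive CD4+ T cells from the spleens of C57BL/6J mice were stimulated with anti-CD3 and anti-CD28 and polarized to Th9 cells, the IL-9-producing helper T cells, with 10 ng/mL IL-4, 1 ng/mL TGF-β, anti-IL-12, and anti-IFN-γ. All 4 groups shared this culture, and they differed in the compounds that were present during it. The DMSO group received the vehicle, the EpA group 10 μM EpA (a cyclic lipopeptide isolated from endophytic fungi), the fatostatin group 5 μM fatostatin (an inhibitor of SREBP, the transcription factor that drives lipid synthesis), and the last group both compounds. RNA-seq was done on day 4 with 3 replicates per group, and the study calls the libraries independent without saying whether they came from separate mice or cultures, so p-values measure the spread between these samples, which may be technical. The cells are a bulk in vitro culture that was not sorted by receptor level, and the age of the mice was not used here.

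Nuclear receptors are transcription factors that bind small lipid-soluble ligands. The retinoid X receptors (RXRs) are the shared partners of the family: they form dimers with the retinoic acid receptors (RARs), the vitamin D receptor, the thyroid hormone receptors, and the peroxisome proliferator-activated receptors (PPARs), whereas the glucocorticoid receptor binds DNA without them. In CD4+ T cells, retinoic acid made from vitamin A is known for inducing gut-homing receptors and for tuning the balance of regulatory and effector T cells.

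The promoters of the genes at the center of the results are shown first. Sequences of RefSeq on GRCm38.p6 were found for 8 members that were searched, with 18 annotated starts, whereas *Thra* had no entry and *Nr3c1* was not searched. The windows ran from 250 bases before to 50 bases after a start. They were searched on both strands for the letters AGGTCA and AGTTCA, the 6-letter motifs that these receptors recognize, and for CACGTG, an E-box. The 250 bases before a start of *Rara*, of *Rarg*, and of *Dhrs3* are printed 5′ to 3′ on the strand of the gene, because these genes showed the largest differences with fatostatin, and capitals mark a motif.
*Rara*, chr11:98937468-98937717, plus strand: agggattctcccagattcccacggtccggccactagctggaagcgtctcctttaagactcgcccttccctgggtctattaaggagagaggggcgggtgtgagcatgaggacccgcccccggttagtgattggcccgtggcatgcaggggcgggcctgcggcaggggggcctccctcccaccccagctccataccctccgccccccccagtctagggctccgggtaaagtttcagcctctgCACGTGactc
*Rarg*, chr15:102257523-102257772, minus strand: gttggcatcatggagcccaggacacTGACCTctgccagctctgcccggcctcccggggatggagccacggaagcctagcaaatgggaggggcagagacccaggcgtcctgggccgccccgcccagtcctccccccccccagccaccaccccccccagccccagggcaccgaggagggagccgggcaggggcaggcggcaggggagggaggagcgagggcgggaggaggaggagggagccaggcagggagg
*Dhrs3*, chr4:144892577-144892826, plus strand: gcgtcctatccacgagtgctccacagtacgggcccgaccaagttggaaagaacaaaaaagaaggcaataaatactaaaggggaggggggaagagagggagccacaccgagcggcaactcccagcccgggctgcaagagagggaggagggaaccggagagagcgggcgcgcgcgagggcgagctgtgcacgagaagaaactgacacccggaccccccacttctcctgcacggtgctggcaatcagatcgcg
The *Rara* window lies inside the gene, upstream of an internal start, and overlaps an annotated exon of *Rara*. The *Rarg* and *Dhrs3* windows lie upstream of the annotated genes and overlap no gene. CACGTG stood at -10 to -5 from this *Rara* start and was found at 2 of the 18 starts, both of *Rara*, compared with 7.15% of 32851 mouse promoters. The windows of these starts overlap, and the match at both is the same bases. In the *Rarg* window, TGACCT, which is AGGTCA on the other strand, stood at -225 to -220. Either receptor motif was found at 7 of 18 starts, in 5 of the 8 genes, against 27.7% of all promoters, and 0 starts held a direct repeat of them with 1 to 5 bases between. A match is a description of letters, and FPKM do not tell which start was used.

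Levels were measured as fragments per kilobase and per unit of library size (FPKM), which scales the count of a gene by its length and by the library, so that genes can be set side by side. Over the 12 libraries, *Rxrb* was the most abundant of the 10 genes with a mean of 15.3 FPKM, followed by *Rxra* with 13.3, *Nr3c1* with 12.8, and *Rara* with 8.10 FPKM. The next genes lay close together, with means of 3.58 FPKM for *Pparg*, 3.40 for *Ppard*, 2.97 for *Vdr*, 2.96 for *Thra*, and 2.25 for *Rarg*. *Dhrs3* was the lowest, at 0.217 FPKM. Ranked among the genes tested, *Rxrb* stood at percentile 75.1, *Rara* at 60.4, and *Dhrs3* at 9.29. The remaining subtypes *Rarb*, *Rxrg*, and *Ppara* had at most 2 reads in any library, so that the RARs of these cells were measured as *Rara* and *Rarg*, and the RXRs as *Rxra* and *Rxrb*.

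Libraries held 36607303 to 44375791 reads on genes, as computed from the FPKM of 1 read. The 9 measured CD4 T cell markers summed to 860 to 873 FPKM in the DMSO libraries, 1361 to 1400 with EpA, 863 to 873 with fatostatin, and 1534 to 1594 with both compounds. Most of this range was *Il9*, the cytokine that defines Th9 cells, at 54.6 ± 3.38 FPKM (SD, n = 3) with DMSO, 640 ± 17.5 with EpA, 66.5 ± 5.22 with fatostatin, and 821 ± 29.7 with both. The sum does not stand for each marker: of the 9, 3 rose and 6 fell with EpA, 3 and 2 with fatostatin, 3 and 3 with fatostatin added to EpA, and 3 and 5 with EpA added to fatostatin, where 27.4%, 14.0%, 16.0%, and 29.5% of all 13733 genes tested passed in either direction. With EpA, *Il9*, *Cd4* (0.15), and *Batf* (0.34) rose, whereas the genes of the T cell receptor complex *Cd3d* (-0.24), *Cd3e* (-0.33), and *Cd3g* (-0.27), the kinase gene *Lck* (-0.20), the costimulatory receptor gene *Cd28* (-0.53), and *Irf4* (-0.12) fell on the log2 scale, with limma adjusted p of at most 0.00185. The 22 markers of other blood and stromal cells summed to 15.7 to 20.9 FPKM over the 12 libraries, with 1 or 2 of them at 0 in each group. Of 10 of these markers tested, EpA against DMSO gave 2 that rose and 2 that fell (1 and 1 with voom), fatostatin 1 and 0, fatostatin added to EpA 1 and 1, and EpA added to fatostatin 0 and 2. *Cd8a*, a marker of CD8 T cells, was 1.81 ± 0.182 FPKM (SD, n = 3) with DMSO, 0.802 ± 0.0328 with EpA, 1.52 ± 0.0807 with fatostatin, and 0.491 ± 0.0767 with both, and fell by 1.08 on the log2 scale with EpA (limma adjusted p = 2.85e-05) and by 1.46 when EpA was added to fatostatin (adjusted p = 2.57e-06). *Cd8b1*, the other CD8 T cell gene of the list, was more abundant, at 7.60 ± 0.426, 7.47 ± 0.404, 7.64 ± 0.846, and 7.25 ± 0.889 FPKM in the same order. It passed in none of the comparisons (limma adjusted p from 0.606 to 0.992). *Lyz2*, a marker of myeloid cells, rose by 1.07 with EpA (adjusted p = 0.00934) and by 1.15 with fatostatin (adjusted p = 0.0113), at means of 0.0371 to 0.224 FPKM. It had 2, 0, and 4 reads in the DMSO libraries and at most 14 in any library, so these values are uncertain. *Itgax* passed in no comparison, and the myeloid markers *Csf1r*, *Adgre1*, *Itgam*, and *Cd14* were too low to be tested. The others that passed were *Mcpt8* (0.90) and *Cd79a* (-0.60) with EpA, *Cd79a* (0.72) and *Cd8a* (-0.62) with fatostatin added to EpA, and *Cd79b* (-0.33) with EpA added to fatostatin. The part of either marker list in the results below was not tested. Since the cultures were measured in bulk, fewer cells that express a gene and less RNA per cell cannot be told apart.

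**Figure D1:**
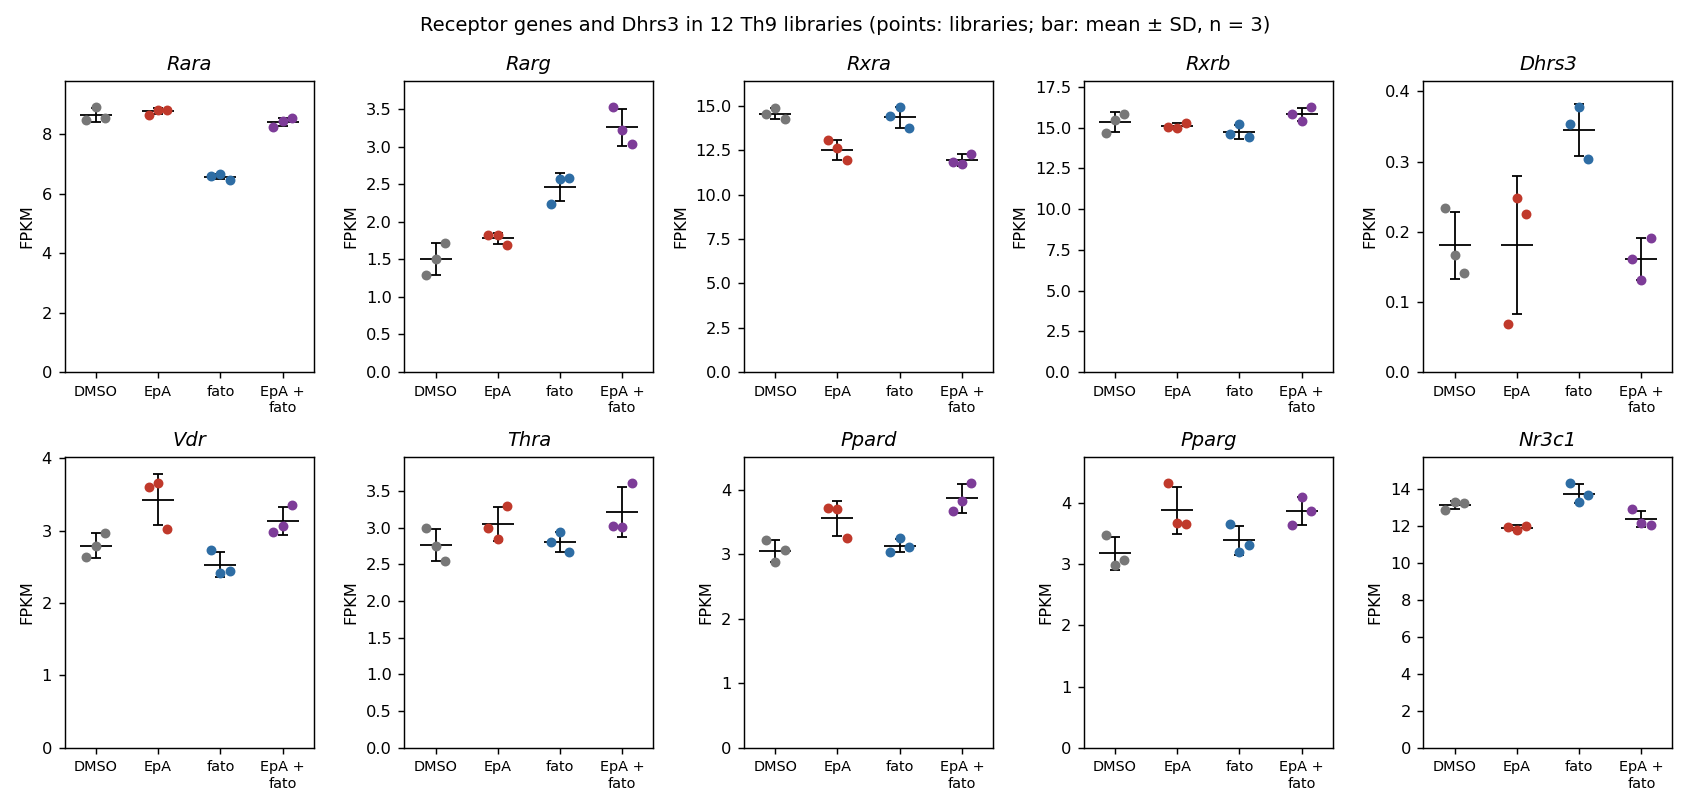
Level (FPKM, from 0) of each of the 10 genes in each of the 12 libraries, by group; points are libraries and bars are the mean ± SD of 3. The 3 *Rara* values with fatostatin alone, from 6.48 to 6.64 FPKM, lie below the other 9, and *Rarg* is highest with both compounds, from 3.04 to 3.52 FPKM.

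*Rara* encodes retinoic acid receptor α, the main RAR of T cells. Its level was 8.47, 8.90, and 8.54 FPKM in the DMSO libraries and 8.66, 8.83, and 8.82 FPKM with EpA. With fatostatin it was 6.60, 6.64, and 6.48 FPKM, and with both compounds 8.25, 8.44, and 8.54 FPKM. The 3 libraries with fatostatin alone were lower than each of the other 9, whereas the DMSO libraries overlapped both the EpA libraries and those with both compounds. The DMSO mean was 8.63 ± 0.231 FPKM (SD, n = 3) and the EpA mean 8.77 ± 0.0941, while fatostatin gave 6.57 ± 0.0879 and both compounds 8.41 ± 0.147. These values rest on 1145 to 1631 reads per library.

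On the log2(FPKM + 0.1) scale, *Rara* differed by 0.02 (SE 0.0299) between EpA and DMSO and by 0.35 (SE 0.0299) between both compounds and fatostatin. The difference between these EpA effects, with minus without fatostatin, was 0.33 (SE 0.0423). Seen from the other side, fatostatin against DMSO gave -0.39, a ratio of means of 0.761, and both compounds against EpA gave -0.06, a ratio of 0.959. These are the values by which the genes were chosen, and nothing is read from them beyond their size. For *Rara*, the lowest library outside the fatostatin group stood at 8.25 FPKM and the highest inside it at 6.64 FPKM.

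For the other genes, the difference between the EpA effects is likewise given with no test. It was 0.15 (SE 0.140) for *Rarg*, 0.12 (SE 0.0474) for *Rxrb*, 0.08 (SE 0.0943) for *Ppard*, and 0.05 (SE 0.122) for *Thra*. For *Vdr* it was 0.02 (SE 0.119), for *Nr3c1* -0.01 (SE 0.0484), for *Rxra* -0.05 (SE 0.0563), and for *Pparg* -0.09 (SE 0.118). These 8 values lay on both sides of 0, between -0.09 and 0.15. *Dhrs3* had the largest absolute value of the 10 genes, -0.72, with an SE of 0.380.

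**Figure D2:**
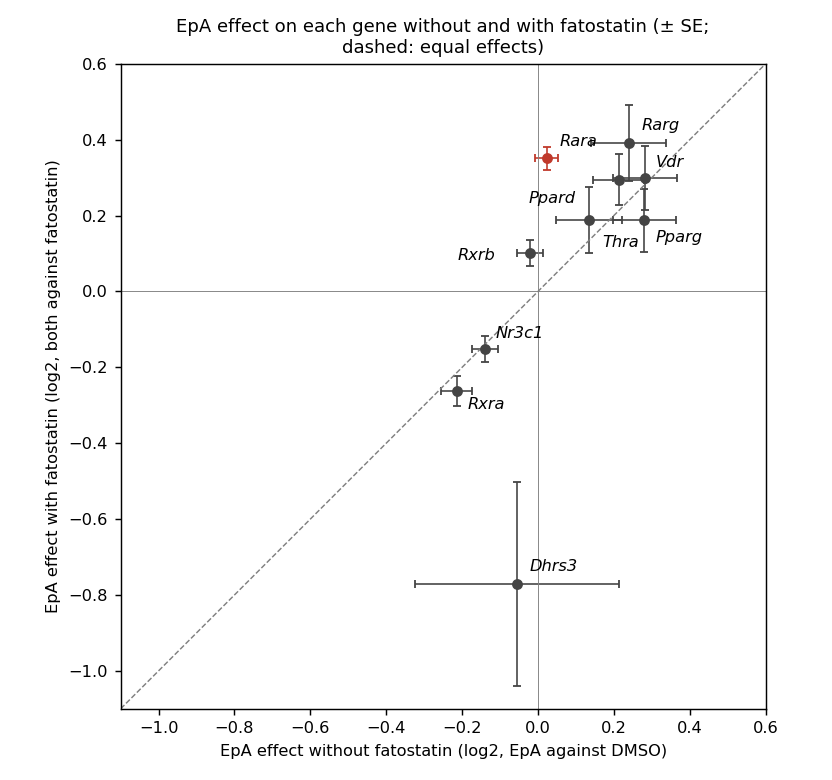
EpA effect without fatostatin (x axis, log2 EpA against DMSO) and with fatostatin (y axis, log2 both compounds against fatostatin) for the 10 genes, with SE bars; points on the dashed line have equal effects. *Rara* lies above the line at 0.02 and 0.35, *Dhrs3* below it at -0.06 and -0.77, and *Nr3c1*, *Rxra*, and *Vdr* lie close to it.

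*Rarg* encodes retinoic acid receptor γ. Its level was 1.29, 1.499, and 1.72 FPKM with DMSO and 1.82, 1.82, and 1.70 FPKM with EpA. With fatostatin it was 2.24, 2.57, and 2.58 FPKM, and with both compounds 3.52, 3.22, and 3.04 FPKM. All fatostatin libraries thus stood above all DMSO and EpA libraries, and all libraries with both compounds above those with fatostatin alone, while DMSO and EpA overlapped. *Rarg* rose with fatostatin by 0.68 on the log2 scale (SE 0.0992; limma adjusted p = 0.00076), from a mean of 1.501 ± 0.214 to 2.46 ± 0.191 FPKM (SD, n = 3). It rose by 0.84 when fatostatin was added to EpA (adjusted p = 0.000165) and by 0.39 when EpA was added to fatostatin (adjusted p = 0.0116), to a mean of 3.26 ± 0.246 FPKM. Against DMSO, EpA alone gave 0.24 (95% interval 0.02 to 0.46; adjusted p = 0.1), with a mean of 1.78 ± 0.0724 FPKM, and passed without DMSO replicate 3 (adjusted p = 0.0291).

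With fatostatin the values of the 2 RAR genes lay in opposite directions from DMSO. The ratio of *Rara* to *Rarg*, both in FPKM and thus per length, was 4.97 to 6.57 in the DMSO libraries and 4.75 to 5.20 in the EpA libraries. It was 2.51 to 2.94 with fatostatin and 2.34 to 2.81 with both compounds. The ranges with and without fatostatin did not overlap, and with fatostatin, alone or with EpA, *Rara* remained the more abundant of the pair in every library. The sum of both genes was 10.1 ± 0.336 FPKM (SD, n = 3) with DMSO, 10.6 ± 0.0839 with EpA, 9.04 ± 0.184 with fatostatin, and 11.7 ± 0.0999 with both compounds. Because *Rara* was used to choose the genes, the ratio and the sum carry no test.

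**Figure D3:**
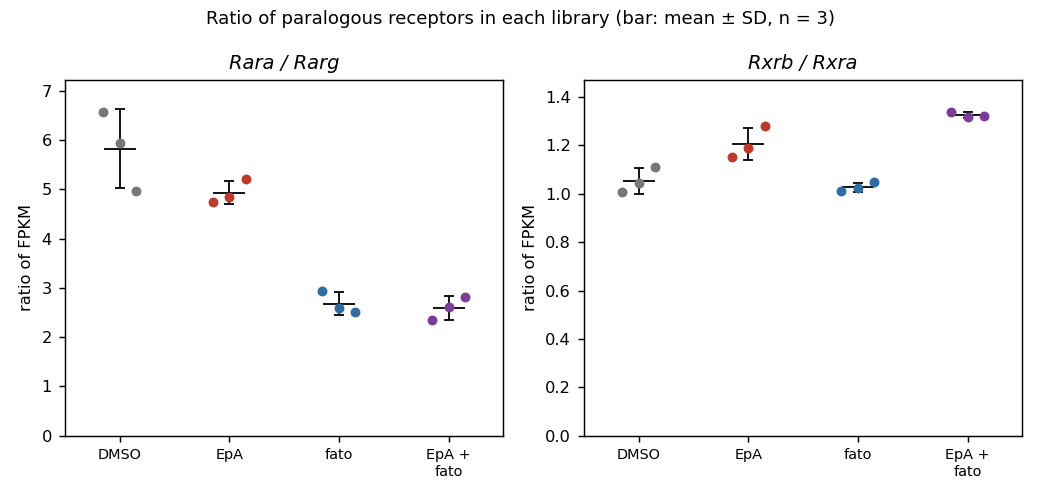
Ratio of FPKM (y axis, from 0) of *Rara* to *Rarg* and of *Rxrb* to *Rxra* in each library, by group; points are libraries and bars the mean ± SD of 3. The first ratio is 4.75 or more in the 6 libraries without fatostatin and 2.94 or less in the 6 with it, and the second is highest with both compounds, from 1.32 to 1.34.

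*Rxra* encodes retinoid X receptor α, a dimer partner of the RARs. Its level was 14.6, 14.9, and 14.2 FPKM with DMSO, 13.1, 12.6, and 11.9 FPKM with EpA, 14.4, 14.9, and 13.7 FPKM with fatostatin, and 11.8, 11.7, and 12.3 FPKM with both compounds. All 6 libraries with EpA were lower than all 6 without it. *Rxra* fell by 0.21 on the log2 scale with EpA (SE 0.0398; limma adjusted p = 0.00205) and by 0.26 when EpA was added to fatostatin (adjusted p = 0.000482). With fatostatin against DMSO the value was -0.02 (95% interval -0.11 to 0.07), and with both compounds against EpA it was -0.07 (-0.16 to 0.02), neither past the threshold.

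*Rxrb* encodes retinoid X receptor β, which forms the same kinds of dimers. It was measured at 14.7, 15.5, and 15.8 FPKM with DMSO and at 15.05, 14.98, and 15.3 FPKM with EpA. The fatostatin libraries held 14.6, 15.2, and 14.4 FPKM, and those with both compounds 15.8, 15.4, and 16.2 FPKM. Neighboring groups in the order of the means overlapped throughout, whereas both compounds did not overlap EpA or fatostatin. *Rxrb* rose by 0.10 when EpA was added to fatostatin (SE 0.0335; limma adjusted p = 0.0409), a call that was lost in 13 of 22 alternative settings. Among these were leaving out DMSO replicate 2, any EpA library, fatostatin replicate 1 or 3, or replicate 1 or 3 of both compounds, with limma adjusted p from 0.052 to 0.136. The ratio of *Rxrb* to *Rxra* was 1.05 ± 0.0536 (SD, n = 3) with DMSO, 1.21 ± 0.0657 with EpA, 1.03 ± 0.0187 with fatostatin, and 1.33 ± 0.0107 with both compounds. The 6 libraries with EpA, from 1.15 to 1.34, all lay above the 6 without it, from 1.01 to 1.11.

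*Dhrs3* encodes a short-chain dehydrogenase that turns retinaldehyde back into retinol and so lowers the supply of retinoic acid. It is itself a known target of retinoic acid. It was scarce: 0.233, 0.167, and 0.141 FPKM with DMSO (25, 20, and 18 reads) and 0.0687, 0.249, and 0.226 FPKM with EpA (8, 29, and 28 reads). With fatostatin it was 0.354, 0.377, and 0.304 FPKM (46, 44, and 36 reads), and with both compounds 0.161, 0.131, and 0.192 FPKM (20, 16, and 23 reads). The 3 libraries with fatostatin alone were higher than each of the other 9, which overlapped among themselves, and the third fatostatin library stood closest to them. None of its tests passed: fatostatin against DMSO gave 0.67 (95% interval 0.08 to 1.26; limma adjusted p = 0.129), and both compounds against fatostatin gave -0.77 (-1.36 to -0.18; adjusted p = 0.0506). The first of these passed without EpA replicate 1 (adjusted p = 0.0373), the lowest library, and the second in 7 of 21 alternatives, with an adjusted p of 0.0106 without EpA replicate 1 and 0.0458 without EpA replicate 2. Over the alternatives that left out no single library, the first value ran from 0.19 to 0.96 and the second from -1.09 to -0.21.

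*Vdr* encodes the vitamin D receptor, a further partner of RXR that is induced when T cells are activated. Its level was 2.63, 2.79, and 2.96 FPKM with DMSO and 3.61, 3.66, and 3.02 FPKM with EpA. Under fatostatin it was 2.74, 2.42, and 2.44 FPKM, and with both compounds 2.99, 3.06, and 3.36 FPKM. All libraries with EpA were above all libraries without it, although the first library with both compounds and the third EpA library stood close to the highest DMSO library. *Vdr* rose by 0.28 on the log2 scale with EpA (SE 0.0841; limma adjusted p = 0.0277) and by 0.30 when EpA was added to fatostatin (adjusted p = 0.0199). Fatostatin gave -0.14 against DMSO (95% interval -0.32 to 0.05) and -0.12 on top of EpA (-0.31 to 0.06). The first call was lost in 6 of 22 alternatives, among them leaving out DMSO replicate 1 or 2 or EpA replicate 1 or 2 (limma adjusted p = 0.0965, 0.0676, 0.0975, and 0.102). The second was lost in 3, without fatostatin replicate 2 or 3 or replicate 3 of both compounds (adjusted p = 0.0691, 0.0645, and 0.0772).

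*Thra* encodes thyroid hormone receptor α. It was measured at 3.00, 2.75, and 2.55 FPKM with DMSO, 3.00, 2.84, and 3.30 FPKM with EpA, 2.80, 2.94, and 2.66 FPKM with fatostatin, and 3.03, 3.00, and 3.61 FPKM with both compounds. Both compounds did not overlap fatostatin or, by less than 0.01 FPKM, DMSO, and the other groups overlapped. No comparison of *Thra* passed the threshold, and the value farthest from 0 was 0.19 for both compounds against fatostatin (95% interval -0.0026 to 0.38; limma adjusted p = 0.132). Its exons overlap those of *Nr1d1* on the opposite strand by 263 bases, and reads there cannot be assigned if strand was not used in counting, so this value is uncertain.

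The PPARs sense fatty acids, and *Pparg* is known to be expressed in IL-9-producing helper T cells. *Ppard* was measured at 3.21, 2.88, and 3.06 FPKM with DMSO, 3.71, 3.70, and 3.25 FPKM with EpA, 3.04, 3.24, and 3.11 FPKM with fatostatin, and 3.66, 3.83, and 4.10 FPKM with both compounds. All 6 libraries with EpA were above all 6 without it, with the third EpA library close to the highest of the others. *Ppard* rose by 0.21 with EpA (SE 0.0667; limma adjusted p = 0.0351) and by 0.29 when EpA was added to fatostatin (adjusted p = 0.00626). The first of these calls was lost in 7 of 22 alternatives, among them leaving out DMSO replicate 2 or 3 or EpA replicate 1 or 2 (adjusted p = 0.123, 0.0776, 0.119, and 0.115), and the second in none of the 22.

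*Pparg* was measured at 3.48, 2.98, and 3.07 FPKM with DMSO, 4.32, 3.67, and 3.66 FPKM with EpA, 3.66, 3.20, and 3.31 FPKM with fatostatin, and 3.64, 4.10, and 3.88 FPKM with both compounds. EpA and DMSO did not overlap, whereas both compounds and fatostatin did by the first library of each. *Pparg* rose by 0.28 with EpA (SE 0.0835; limma adjusted p = 0.0274), a call lost with only these groups in the fit and without DMSO replicate 2 or 3 or EpA replicate 1 (adjusted p = 0.0613, 0.0972, 0.0855, and 0.106). When EpA was added to fatostatin the value was 0.19 (95% interval 0.0037 to 0.37; adjusted p = 0.119). The ratio of *Pparg* to *Ppard* stayed between 0.946 and 1.20 in all 12 libraries.

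*Nr3c1* encodes the glucocorticoid receptor, which represses inflammatory cytokine genes in T cells. Its level was 12.9, 13.3, and 13.3 FPKM with DMSO and 11.9, 11.8, and 12.03 FPKM with EpA. The fatostatin libraries held 14.3, 13.3, and 13.7 FPKM, and those with both compounds 12.9, 12.2, and 12.1 FPKM. EpA libraries were lower than those of every other group, and fatostatin and DMSO overlapped. *Nr3c1* fell by 0.14 on the log2 scale with EpA (SE 0.0342; limma adjusted p = 0.0101) and by 0.15 when EpA was added to fatostatin (adjusted p = 0.00623). The ratios of the means were 0.906 and 0.900.

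Counted over the 9 genes with a test, EpA against DMSO gave 3 that rose (*Vdr*, *Ppard*, and *Pparg*) and 2 that fell (*Rxra* and *Nr3c1*), where 27.4% of all 13733 genes tested passed the same threshold in either direction. The 5 became 2 without DMSO replicate 2 or EpA replicate 1 and 3 without EpA replicate 2. None of the 9 passed both this threshold and a fold of 1.5 by limma, as 3.38% of all genes did, and 0 did so at an unadjusted p below 0.05 or with voom. The groups did not overlap for 5 of the 9, the same genes, and for 42.4% of all genes tested. Fatostatin against DMSO gave 1 gene, *Rarg*, which rose and passed 1.5-fold, where 14.0% of all genes passed the threshold and 1.86% also the fold. With a pseudocount of 1 the *Rarg* value was 0.47, short of 1.5-fold. Without EpA replicate 1 the count was 2. The groups did not overlap for 2 genes, *Rarg* and *Dhrs3*, and for 31.3% of all genes. The median log2 fold change of the 9 genes was 0.14 with EpA and 0.04 with fatostatin, compared with 0.0023 and 0.0053 over all genes tested.

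Both compounds against EpA again gave only *Rarg* among the 9 genes, past both thresholds, where 16.0% of all genes passed the threshold and 1.99% also the fold. Groups did not overlap for 3 of the 9 genes, *Rarg*, *Rxrb*, and *Nr3c1*, and for 33.3% of all genes. Both compounds against fatostatin gave 4 genes that rose (*Rarg*, *Rxrb*, *Vdr*, and *Ppard*) and 2 that fell (*Rxra* and *Nr3c1*), where 29.5% of all genes passed the threshold. None of the 9 passed 1.5-fold as well by limma, against 3.75% of all genes, whereas 1 did at an unadjusted p below 0.05, *Dhrs3*, and 1 with voom. The groups did not overlap for 8 of the 9, *Pparg* being the exception, and for 41.4% of all genes. Medians were 0.05 and 0.19 over the 9 genes and 0.01 and 0.01 over all genes. The comparisons share groups (each of the 4 groups stands in 2 of them), so they are not independent of each other. Because members and lists were chosen with earlier results of these data known, counts set beside the shares of all genes are descriptions.

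**Figure D4:**
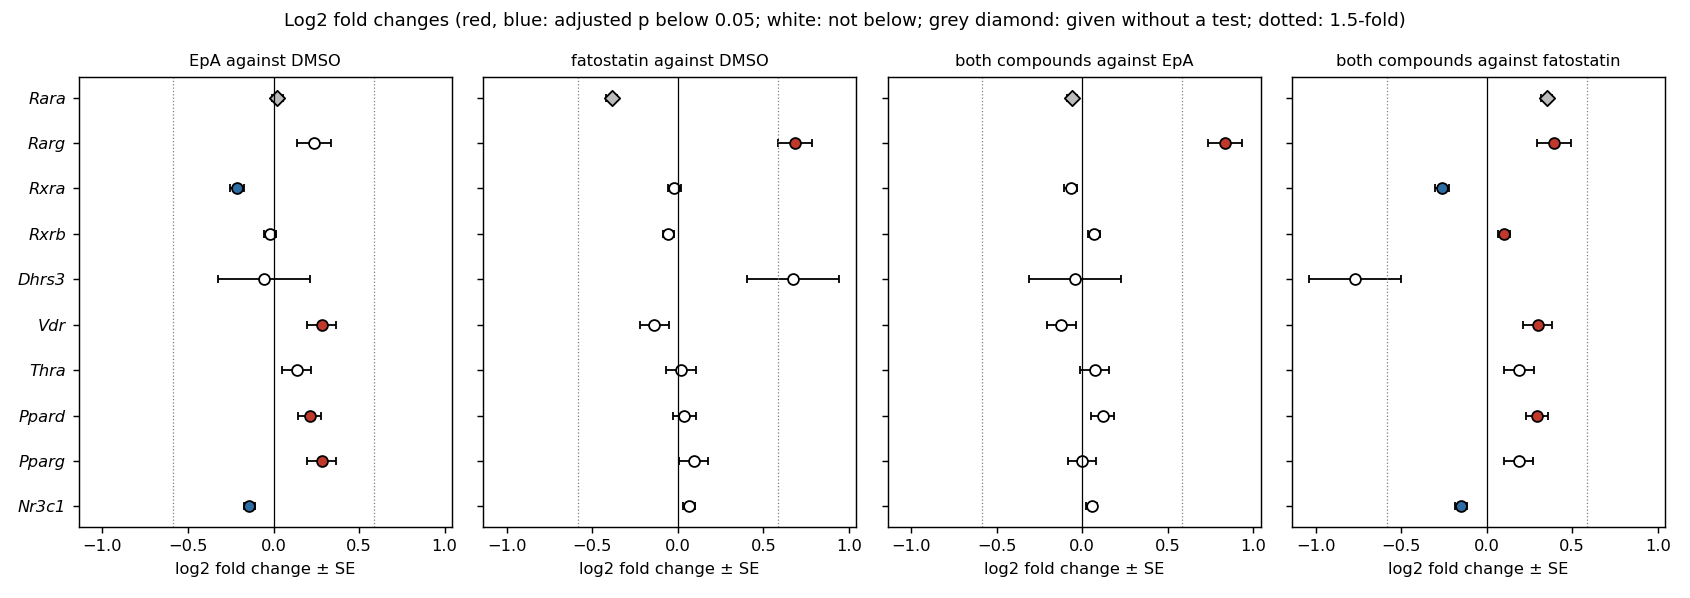
Log2 fold change ± SE (x axis) of the 10 genes in the 4 comparisons; red points rose and blue points fell at a limma adjusted p below 0.05, white points did not pass, and the grey diamond of *Rara* carries no test. *Rarg* is the only one of the 9 tested genes past the dotted 1.5-fold line with a call, in the 2 comparisons that add fatostatin.

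The genes that make, carry, and remove retinoic acid were counted in a list of 33 genes other than *Dhrs3*, of which 13 were abundant enough to be tested. EpA against DMSO gave 5 of the 13 that rose and 0 that fell, and EpA added to fatostatin gave 7 and 0, where 27.4% and 29.5% of all genes passed in either direction. Fatostatin against DMSO gave 1 and 3 (2 and 2 with voom), and fatostatin added to EpA gave 2 and 0, against 14.0% and 16.0%. At an unadjusted p below 0.05, limma had 1, 0, and 1 gene that fell in the 3 comparisons with 0, and voom had 0 calls there. The median log2 fold change of the list was 0.13 for each of the EpA comparisons, and -0.01 for each of the fatostatin comparisons. The enzymes that complete retinoic acid synthesis, *Aldh1a1*, *Aldh1a2*, and *Aldh1a3*, had at most 18 reads in any library, and *Cyp26a1* and *Cyp26b1*, which degrade it, at most 16.

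*Stra6*, a membrane receptor that takes up retinol, was 20.7 ± 0.508 FPKM (SD, n = 3) with DMSO, 28.8 ± 0.594 with EpA, 26.4 ± 0.603 with fatostatin, and 36.4 ± 0.954 with both. No groups overlapped, and it rose in each of the 4 comparisons, by 0.47 with EpA (limma adjusted p = 6.02e-07) and by 0.35 with fatostatin (adjusted p = 1.04e-05). *Crabp2*, which carries retinoic acid to the RARs in the nucleus, was 1.28, 1.78, and 1.22 FPKM with DMSO and 2.09, 2.16, and 2.43 FPKM with EpA. With fatostatin alone it was 1.02, 0.740, and 1.06 FPKM, and with both compounds 1.92, 1.98, and 2.03 FPKM. *Crabp2* rose by 0.63 with EpA (adjusted p = 0.00858), fell by 0.55 with fatostatin (adjusted p = 0.0302), and rose by 1.01 when EpA was added to fatostatin (adjusted p = 0.000379).

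*Rdh10* and *Dgat1* were named after their values were seen. *Rdh10*, which oxidizes retinol to retinaldehyde and so opposes *Dhrs3*, was 3.29 ± 0.103 FPKM with DMSO and 2.80 ± 0.0421 with fatostatin. It fell by 0.22 with fatostatin (limma adjusted p = 0.0306) and rose by 0.37 when EpA was added to it (adjusted p = 0.000823), to 3.66 ± 0.21 FPKM. With EpA alone it was 3.69 ± 0.279 FPKM, 0.16 above DMSO on the log2 scale (adjusted p = 0.0721). *Dgat1*, which can esterify retinol, rose by 0.21 with EpA (adjusted p = 0.00571) and fell by 0.18 with fatostatin (adjusted p = 0.0189). With EpA present, fatostatin gave -0.01 for *Rdh10* and -0.01 for *Dgat1*, neither past the threshold.

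Of 18 listed retinoic acid targets, other than *Rara* and *Dhrs3*, 8 were tested, *Stra6* and *Crabp2* among them. EpA gave 4 that rose and 3 that fell, fatostatin 3 and 4 (3 and 3 with voom), fatostatin added to EpA 3 and 3, and EpA added to fatostatin 5 and 3, against 27.4%, 14.0%, 16.0%, and 29.5% of all genes. The classical target *Rarb* was near 0, as given above, and the gut-homing receptor *Ccr9* had at most 10 reads. *Hic1*, a transcriptional repressor that retinoic acid induces in T cells, was 9.41 ± 0.205 FPKM (SD, n = 3) with DMSO, 9.77 ± 0.339 with EpA, 5.02 ± 0.209 with fatostatin, and 6.33 ± 0.324 with both. It fell by 0.89 with fatostatin (limma adjusted p = 1.97e-07) and by 0.62 when fatostatin was added to EpA, and rose by 0.33 when EpA was added to fatostatin (adjusted p = 0.00027). The EpA effect without fatostatin was 0.05 for *Hic1* (adjusted p = 0.434).

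Other targets moved in other ways. *Tgm2*, a transglutaminase, was 14.5 ± 0.157 FPKM with DMSO, 25.3 ± 0.426 with EpA, 17.9 ± 0.597 with fatostatin, and 34.3 ± 0.406 with both, and rose in each of the 4 comparisons. The subunits of the gut-homing integrin α4β7 differed from each other with fatostatin. *Itga4* fell by 0.54 with EpA and rose by 0.72 with fatostatin (limma adjusted p = 0.000128 and 2.5e-05). *Itgb7*, named after its values were seen, fell by 0.46 with EpA and by 0.14 with fatostatin (adjusted p = 4.1e-08 and 0.000527).

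**Figure D5:**
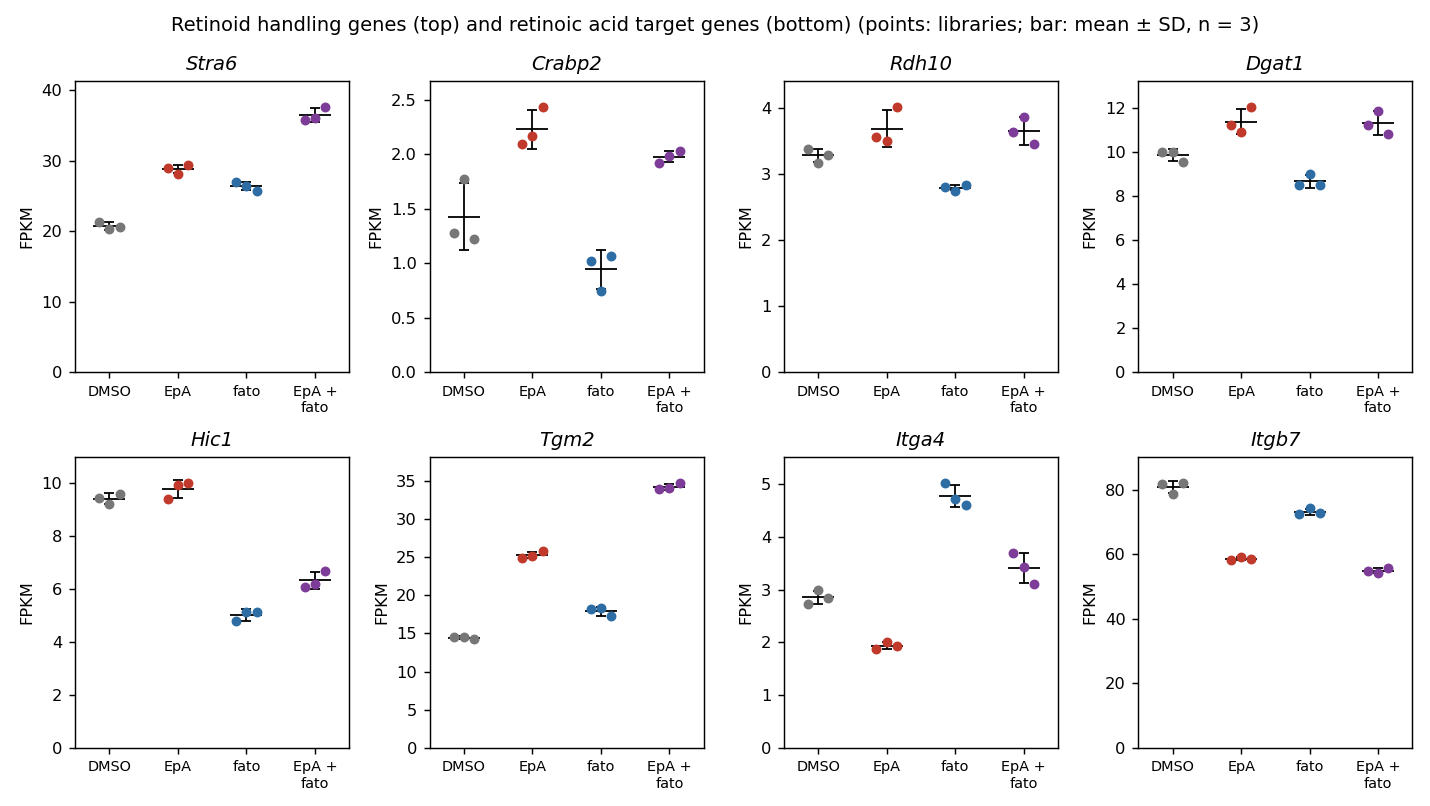
Level (FPKM, from 0) of 4 retinoid handling genes and 4 retinoic acid target genes in each library, by group; points are libraries and bars the mean ± SD of 3. *Crabp2*, *Rdh10*, and *Dgat1* are lowest with fatostatin alone, *Hic1* is lower in the 6 libraries with fatostatin than in the 6 without, and *Stra6* and *Tgm2* are highest with both compounds.

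Of the 40 other genes of the nuclear receptor superfamily, 10 were listed at 0 in all libraries and 16 were tested. EpA gave 3 that rose and 1 that fell, fatostatin 3 and 0, fatostatin added to EpA 5 and 0, and EpA added to fatostatin 5 and 1. Over all genes, 27.4%, 14.0%, 16.0%, and 29.5% passed, and the counts with EpA and with fatostatin were near these shares. The counts of 0 were also 0 at an unadjusted p and with voom. *Nr4a2*, an orphan receptor induced by T cell receptor signals, was 1.45 ± 0.163 FPKM (SD, n = 3) with DMSO and 3.56 ± 0.133 with EpA, and rose by 1.25 (limma adjusted p = 2.19e-06). Its paralog *Nr4a3* did not pass with EpA (0.02), but rose by 1.00 with fatostatin (adjusted p = 1.21e-07), from 2.61 ± 0.00852 to 5.32 ± 0.286 FPKM, and stood at 7.61 ± 0.182 FPKM with both compounds. *Thrb*, the second thyroid hormone receptor gene, rose by 0.43 with fatostatin (adjusted p = 0.0299) to 1.01 ± 0.0835 FPKM, and by 0.43 when EpA was added to fatostatin (adjusted p = 0.0163). *Nr1d1*, whose exons overlap those of *Thra*, rose by 0.61 with EpA (adjusted p = 0.00436), from 0.484 ± 0.0117 FPKM.

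Receptors act through coactivators and corepressors, of which 25 of 26 listed genes were tested. EpA gave 1 that rose and 8 that fell, and EpA added to fatostatin 4 and 6, whereas fatostatin gave 3 and 1 and fatostatin added to EpA 2 and 0, where 3 fell at an unadjusted p and 1 with voom. Over all genes, 27.4%, 29.5%, 14.0%, and 16.0% passed in these comparisons, so that the count with fatostatin was near the share of all genes. *Prmt1*, an arginine methyltransferase that modifies histones at receptor targets, rose with EpA by 0.29 (limma adjusted p = 3.82e-06) and fell with fatostatin by 0.08 (adjusted p = 0.0374). *Trim24* and *Nrip1*, both of which restrain RAR activity, fell with EpA by 0.32 and 0.27 and rose with fatostatin by 0.22 and 0.28 (adjusted p = 1.32e-05, 0.0148, 0.000332, and 0.0215). The medians of the list lay within 0.04 of 0 in all 4 comparisons.

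The ligand pathways of the other receptors were counted in the same way. Of 4 tested vitamin D genes, 0 passed limma in the first 3 comparisons, where 0, 0, and 1 had an unadjusted p below 0.05 and 0 passed with voom, and 1 fell when EpA was added to fatostatin. This was *Spp1*, osteopontin, named after its values were seen, which did not pass with voom. Among 15 chaperones and targets of the glucocorticoid receptor, 8 rose and 1 fell with EpA, and 11 rose and 2 fell when EpA was added to fatostatin, against 27.4% and 29.5% of all genes. The 8 were the chaperone genes *Fkbp4*, *Hsp90aa1*, *Hsp90ab1*, and *Ptges3* and the targets *Tsc22d3*, *Sgk1*, *Ddit4*, and *Nfkbia*. *Fkbp5* (-0.01), *Per1* (0.05), *Dusp1* (-0.10), *Klf9* (0.24), *Tgfbr3* (-0.03), and *Hsd11b1* (-0.37) did not pass with EpA. These genes except *Ddit4* and *Nfkbia* were named after their values were seen. *Ddit4*, a stress-induced inhibitor of mTOR, rose by 0.52 and *Nfkbia*, the inhibitor of NF-κB, by 0.42 with EpA, and *Zfp36*, an mRNA-destabilizing protein, fell by 0.68 (limma adjusted p = 2.17e-05, 1.67e-05, and 2.59e-05). With fatostatin, 1 of the 15 rose and 4 fell, and 3 rose and 3 fell when fatostatin was added to EpA, against 14.0% and 16.0% of all genes. Of the 4 tested thyroid hormone genes other than *Thra*, 0 passed limma with EpA (1 at an unadjusted p below 0.05, and 0 with voom), and *Thrb* alone did with fatostatin and with fatostatin added to EpA. When EpA was added to fatostatin, *Thrb* and *Klf9* rose, the latter, named after its values were seen, by 0.34 (limma adjusted p = 0.0231).

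Of 13 tested targets of the PPARs and of the RXR-binding liver X receptors, 1 rose (0 with voom) and 6 fell with EpA, and 1 rose and 2 fell with fatostatin, against 27.4% and 14.0% of all genes. With fatostatin added to EpA 2 rose and 2 fell, and with EpA added to fatostatin 1 rose and 3 fell (5 with voom), against 16.0% and 29.5% of all genes. *Abcg1*, which exports cholesterol, fell by 0.53 with EpA (limma adjusted p = 0.000112), and *Mylip*, which degrades the LDL receptor, fell by 0.72 (adjusted p = 0.0139). *Abca1*, a further cholesterol exporter, fell by 0.26 with EpA and rose by 0.30 with fatostatin (adjusted p = 0.00598 and 0.00474). *Scd1*, which desaturates fatty acids and is also a target of SREBP1, was 243 ± 2.43 FPKM with DMSO and 172 ± 3.79 with fatostatin, and fell by 0.50 (adjusted p = 1.9e-08).

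The genes whose levels followed *Rara* most closely were found by the root mean square difference of centered log2(FPKM + 0.1) over the 12 libraries, with 10297 genes averaging 1 FPKM or more searched. They were *Acsf2* (0.0551), *Hspbp1* (0.0597), *Asns* (0.0628), *Grwd1* (0.0644), and *Pcsk4* (0.0669). *Acsf2* was 5.55 ± 0.142 FPKM (SD, n = 3) with DMSO, 5.68 ± 0.204 with EpA, 4.34 ± 0.174 with fatostatin, and 5.25 ± 0.197 with both. *Asns* was 30.1 ± 0.285 FPKM with DMSO, 33.4 ± 0.278 with EpA, 25.3 ± 0.304 with fatostatin, and 30.2 ± 0.88 with both. The likeness is a description over 12 libraries of 4 groups and carries no p.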

How the data were processed

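RNA-seq was measured in 12 libraries of mouse Th9 cells, 3 in each of 4 groups taken from the sample labels. The authors deposited FPKM, which they made from reads trimmed by Trim Galore, mapped with HISAT2 on GRCm38, and assigned to genes by featureCounts. The annotation release and the strand setting are not given in the sources used here. Of 32352 lines, 301 repeat a gene with the same values and were dropped, and 0 columns belonged to no sample. With exon lengths of GENCODE vM21, which cover 99.85% of genes, 98.3% to 98.4% of values per library were whole reads within 0.02 of a read. The reads recovered this way sum to 36019739 to 43656682 per library, and the FPKM of 1 read gives totals of 36607303 to 44375791, used as the depth.

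Genes averaging 0.1 FPKM or more over the libraries (13733, all 10 members among them) were tested as log2(FPKM + 0.1) with limma 3.58.1 in R 4.3.3, in 1 fit of 4 group means with an intensity trend. Fold changes on this scale understate those of low genes. p-values are two-sided and adjusted by the Benjamini-Hochberg method over all genes tested, a call is an adjusted p below 0.05, and an exact permutation test of 3 against 3 cannot go below 0.1. Pathway lists were written by hand, and genes in them were named if past 1.5-fold and the threshold in any comparison, or among the 2 largest called changes with EpA or with fatostatin. Markers that passed were all named for at least 1 comparison, after their values were seen. The members and the lists were chosen with earlier results of these data known. The settings varied were the pseudocount, the filter, the scaling, the groups in the fit, the trend, the replicate numbers, voom on the recovered reads, and each library left out. Markers of T cells and of other cells were summed as FPKM. A gene that the naming rule selects is not reported here.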

Additional observations from a re-analysis of the deposited data

How the results depend on the processing

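With 22 alternative settings, 20 of the 36 member results with a test kept both their sign and their side of the threshold in every one. Among them were all calls of *Rarg*, *Rxra*, and *Nr3c1* and that of *Ppard* for both compounds against fatostatin. EpA against DMSO gave 5 members as reported, 2 with only the groups compared, 3 with the replicate block, and 2 to 5 with a library left out (2 without DMSO replicate 2 or EpA replicate 1, and 3 without EpA replicate 2). Replicate numbers did not pair the libraries (18 same-numbered pairs had r from -0.0472 to 0.0744, 0 of them over 0.1). Fatostatin against DMSO gave 1 to 2 members with a library left out, 2 without EpA replicate 1. Past 1.5-fold as well, it gave 0 with a pseudocount of 1, where *Rarg* stood at 0.47, and 1 to 2 with a library left out. Both compounds against fatostatin gave 1 in place of 0, *Dhrs3*, with median of ratios scaling, only the groups compared, no trend, or voom. With a library left out it gave 0 to 1. In each of these, the cause was not tested. The difference between the EpA effects on *Rara* was 0.29 with a pseudocount of 1, which shrinks all log2 values, and 0.31 to 0.34 with a library left out. Only values that were not called changed sign. For *Dhrs3*, both compounds against EpA gave 0.00717 with a pseudocount of 0.01 and 0.0057 with voom (-0.37 to 0.15 with a library left out), and EpA against DMSO gave -0.25 to 0.28. For *Pparg*, both compounds against EpA gave 0.00654 with TPM scaling and 0.00018 with voom (-0.0424 to 0.0762). The other ranges with a library left out were -0.00291 to 0.0746 for *Ppard*, -0.0475 to 0.0113 for *Rxra*, and -0.0356 to 0.076 for *Thra* with fatostatin against DMSO, -0.0524 to 0.00248 for *Rxrb* with EpA against DMSO, and -0.0119 to 0.129 for *Thra* with both compounds against EpA. The counts over 94 pathway genes other than members stayed within 31 to 40, 16 to 27, 21 to 29, and 41 to 50 in the 4 comparisons, in the order of the report. With a minimum mean of 1 FPKM, *Dhrs3* gave no value, and with only the groups compared, the difference between the EpA effects gave none. Depth limits *Dhrs3*, with 8 to 46 reads per library, most.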
